A study of Mus musculus with 48 samples.

Results

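The comparison set total homogenate of medial prefrontal cortex from mice that drank ethanol against the same tissue from mice that drank water. Its members are the 19 homogenate libraries of a series of 48 samples, chosen by their titles and treatment labels, 10 from ethanol mice and 9 from water mice, each library from a mouse with its own number. All were C57BL/6 mice, an inbred laboratory strain. The age and sex of the mice are not given in the labels. Ethanol mice could drink a 15% (v/v) solution on alternate days over 60 days, had water alone on the days between, and were killed once the bottles had been taken away. Water mice were controls over the same 60 days. The dissected tissue was minced and 1% of the suspension was kept as homogenate, so every cell type of the tissue is present and none was selected. The other libraries of the series came from CD11b-enriched microglia and are used here for 1 comparison only. Nothing in the labels records how much each mouse drank, so all ethanol mice enter as one group.

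The medial prefrontal cortex sends excitatory output to striatum, amygdala and midbrain and takes part in the control of alcohol seeking. Ethanol acts directly on ion channels there, enhancing GABA-A receptors and blocking NMDA receptors. In the hour around an experience, active neurons transcribe immediate early genes, which need no new protein to be switched on. Whole tissue also holds glia, vessels and scraps of meninges or white matter, and in such bulk samples fewer cells of a type and less RNA per cell cannot be told apart.

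Of 15215 genes tested with edgeR's quasi-likelihood test, 123 passed at an adjusted p of 0.05 (0.808% of the genes tested). Of these 93 were higher with ethanol (0.611%) and 30 were lower (0.197%). The changes were small: the median log2 fold change was 0.35 among rises and -0.33 among falls, 6 genes changed at least 2-fold and 18 at least 1.5-fold. Across all genes tested the median log2 fold change was -0.0083, and 47.6% were positive. Groups did not overlap in CPM, each count scaled to a common library size of counts in genes, for 5 of the called genes, Rccd1, Rtel1, Cyr61, Lrrcc1 and Zfp385a. Among all genes tested 7 did not overlap (0.046%), and those without a call were Arf6 and Dusp7, which were picked out after their values were seen.

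Library measures differed between the treatments, and every count of called genes stands beside that difference. The share of uniquely aligned reads that fell outside annotated genes was 27.1% ± 4.20 (SD, n = 10) with ethanol and 22.5% ± 1.91 (SD, n = 9) with water (two-sided exact permutation test, p = 0.00377). Depth went the other way, with 38.02 M ± 13.2 counts in genes (M, mega; SD, n = 10) in the ethanol group against 51.02 M ± 13.1 (SD, n = 9) (two-sided exact permutation test, p = 0.0483). With either measure as a covariate 0 genes passed edgeR's test, with 1200 and 1560 genes at an unadjusted p under 0.05 against 2456 without it, and DESeq2 without a covariate called 525. The part of these measures in the 123 calls was not tested beyond these fits. The direction of all 93 rises and all 30 falls was the same in each of the 34 alternative settings tried, those covariates included. Those settings reuse the libraries by which the genes were picked, so this agreement was largely built in and is no independent check. Sequencing runs could be inferred from the sample-sheet numbers of the libraries. Inferred runs 1 and 2 each held 4 ethanol with 4 water libraries, and inferred run 3 held ethanol mice 1 and 13 and water mouse 15. Within inferred run 1 or 2 alone 0 genes passed, with 1618 and 1314 genes at an unadjusted p under 0.05. The difference in the share of reads outside genes was 5.04 and 6.15 percentage points in these runs.

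**Figure D1:**
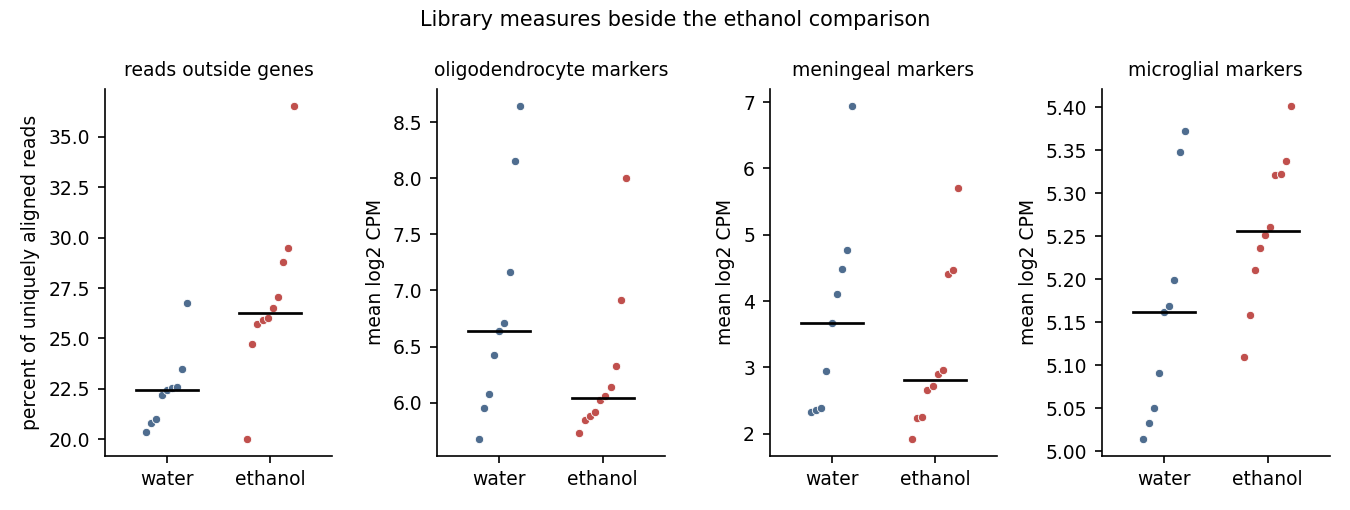
Share of reads outside genes (percent of uniquely aligned reads) and mean log2 CPM of oligodendrocyte, meningeal and microglial marker sets in 9 water and 10 ethanol homogenate libraries. Points are libraries and lines are group medians; the vertical scales differ and do not start at 0. The share outside genes is centred higher with ethanol (median 26.3% against 22.5%), while the oligodendrocyte and meningeal sets spread over several log2 units within each group.

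The largest rises were in immediate early genes. The 5 that passed were Npas4, Cyr61, Btg2, Apold1 and Junb, and the promoter of each is shown first because all 5 were called in the same direction. Each line gives the RefSeq window of GRCm38.p6 from 250 bases before to 50 bases after the annotated start, read 5′ to 3′ on the gene's strand. Capitals mark the cyclic AMP response element TGACGTCA or, where that is incomplete, its 5-base core TGACG or CGTCA, which the activity-responsive factor CREB binds.
Npas4, chr19:4989922-4990221, minus strand: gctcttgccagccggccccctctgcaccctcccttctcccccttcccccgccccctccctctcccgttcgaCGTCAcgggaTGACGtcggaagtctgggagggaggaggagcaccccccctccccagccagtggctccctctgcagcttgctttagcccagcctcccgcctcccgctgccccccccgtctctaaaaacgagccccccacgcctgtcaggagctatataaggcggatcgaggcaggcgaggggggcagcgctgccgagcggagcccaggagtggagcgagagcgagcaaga
Cyr61, chr3:145649936-145650235, minus strand: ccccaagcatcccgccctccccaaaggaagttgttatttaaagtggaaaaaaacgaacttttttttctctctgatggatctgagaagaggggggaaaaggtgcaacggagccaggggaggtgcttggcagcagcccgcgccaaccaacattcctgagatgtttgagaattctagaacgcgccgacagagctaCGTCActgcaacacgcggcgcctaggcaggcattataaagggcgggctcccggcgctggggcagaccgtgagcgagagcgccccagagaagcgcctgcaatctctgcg
Btg2, chr1:134079106-134079405, minus strand: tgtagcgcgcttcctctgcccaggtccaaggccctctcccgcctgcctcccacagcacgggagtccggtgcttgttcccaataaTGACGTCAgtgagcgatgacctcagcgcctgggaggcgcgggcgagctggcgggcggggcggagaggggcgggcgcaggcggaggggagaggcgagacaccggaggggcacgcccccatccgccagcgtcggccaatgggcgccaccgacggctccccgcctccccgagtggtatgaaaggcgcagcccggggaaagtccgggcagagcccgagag
Apold1, chr6:134981751-134982050, plus strand: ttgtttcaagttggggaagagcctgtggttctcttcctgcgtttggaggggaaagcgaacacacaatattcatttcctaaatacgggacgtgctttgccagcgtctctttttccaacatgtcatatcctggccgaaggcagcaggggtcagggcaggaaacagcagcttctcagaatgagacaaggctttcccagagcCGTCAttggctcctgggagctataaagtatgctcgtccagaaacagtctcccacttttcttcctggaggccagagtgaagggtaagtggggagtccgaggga
Junb, chr8:84978699-84978998, minus strand: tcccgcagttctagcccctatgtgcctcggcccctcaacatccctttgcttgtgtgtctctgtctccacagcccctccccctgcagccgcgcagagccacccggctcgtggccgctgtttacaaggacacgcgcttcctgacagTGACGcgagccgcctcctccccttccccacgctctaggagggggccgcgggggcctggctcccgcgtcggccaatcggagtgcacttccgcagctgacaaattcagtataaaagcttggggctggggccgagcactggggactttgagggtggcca

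Btg2 held the complete element, beginning 166 bases before the start. Npas4 held cores that begin 179 and 169 bases before it, and the single cores of Junb, Cyr61 and Apold1 begin 106, 58 and 52 bases before it. Searched on both strands, the core was present in 20.8% of 32851 RefSeq windows of the same length and the complete element, which contains the core, in 1.79%. Of the 36 listed immediate early genes 29 had a window, and a core stood in 20 of these (69.0%), against 23.05% of 27025 genes with a window. The complete element stood in 3 of the 29 (10.3%), against 2.03% of genes. None of the 5 windows held an AP-1 site (TGACTCA or TGAGTCA, in 5.20% of windows) or the CArG box bound by serum response factor (in 1.63%). These matches describe the letters of the windows and are not evidence of binding.

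Npas4, a transcription factor induced by calcium entry in active neurons, lay between 30.0 and 135 CPM with ethanol (median 55.4) and between 6.68 and 30.6 CPM with water (median 20.5). The groups touched at one point only, where the lowest ethanol library lay just under the highest water library. Its log2 fold change was 1.68 (SE 0.27, adjusted p = 0.00870, edgeR). Cyr61 (also Ccn1), a secreted matrix protein switched on by growth factors and stretch, ranged from 15.1 to 72.5 CPM with ethanol (median 23.6) and from 3.30 to 13.6 CPM with water (median 8.27). Its groups did not overlap, and its log2 fold change of 1.83 (SE 0.30, adjusted p = 0.00870) was the largest of all called genes. Ethanol mouse 5, at 72.5 CPM, stood at the top for Cyr61, and without it the log2 fold change was 1.57. Within inferred runs 1 and 2 the log2 fold change was 1.83 and 1.79 for Npas4 and 2.24 and 1.58 for Cyr61. With the share of reads outside genes as a covariate Npas4 stood at 1.54 and Cyr61 at 1.52 (adjusted p = 0.280 for both).

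Btg2, an antiproliferative partner of the mRNA deadenylation machinery, ranged from 27.0 to 131 CPM with ethanol (median 48.6) and from 16.6 to 29.5 CPM with water (median 20.2), a fitted log2 change of 1.51 (SE 0.29, adjusted p = 0.0200, edgeR). Ethanol mice 5 and 10 stood highest, at 130.3 and 131 CPM, while ethanol mice 9, 13 and 14 lay within the water range. Apold1, an early gene of vascular endothelium, ranged from 12.8 to 48.2 CPM with ethanol and from 7.36 to 16.04 CPM with water, a fitted log2 change of 1.12 (SE 0.23, adjusted p = 0.0269). Junb, an AP-1 subunit, ranged from 83.3 to 309 CPM with ethanol (median 156) and from 48.6 to 131 CPM with water (median 82.3), a fitted log2 change of 1.01 (SE 0.22, adjusted p = 0.0374). Both overlapped between groups. The call of Junb was lost without any 1 of 12 libraries and that of Apold1 without any 1 of 4, whereas Npas4, Cyr61 and Btg2 kept theirs in all 19 fits that left 1 library out.

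**Figure D2:**
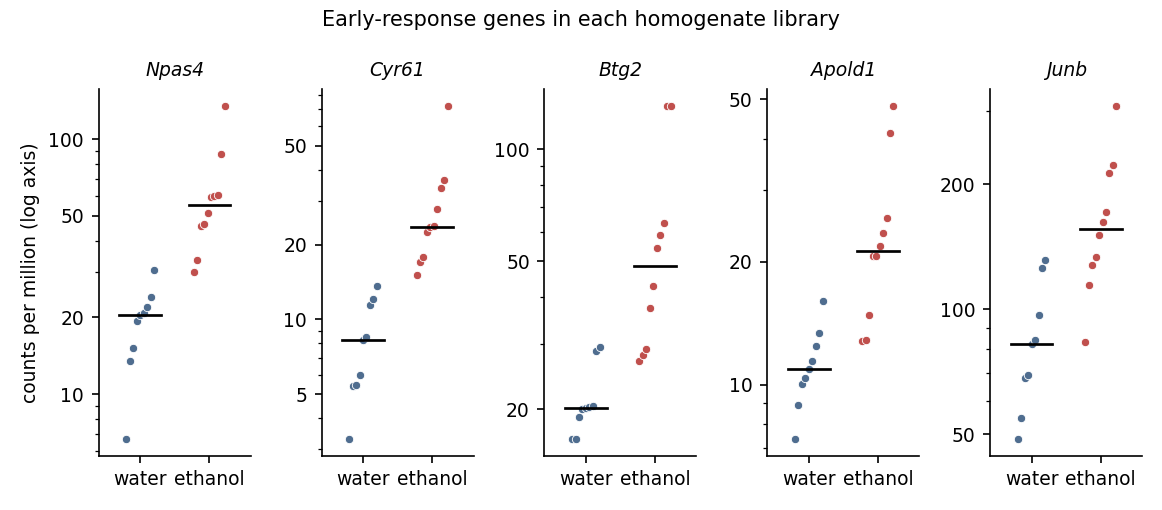
CPM on a log axis for the 5 called immediate early genes in 9 water and 10 ethanol homogenate libraries; points are libraries and lines are group medians. All ethanol libraries lie above all water libraries for Cyr61, Npas4 overlaps by a single pair of libraries, and Btg2, Apold1 and Junb overlap more widely, with ethanol medians of 55.4 CPM for Npas4 and 156 CPM for Junb against 20.5 and 82.3 CPM.

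Of the 36 listed immediate early genes 5 rose and 0 fell, 32 had a positive log2 fold change, and the list's median was 0.36. Among those without a call, Fosb stood at 1.01 (SE 0.25, adjusted p = 0.0570), Fos at 1.07 (SE 0.28, adjusted p = 0.0728) and Jun at 0.36 (SE 0.09, adjusted p = 0.0728). Egr2, a zinc finger factor, stood at 1.08 (SE 0.37, adjusted p = 0.150). In contrast Arc, the cytoskeletal early gene of synapses, stood at 0.27 (SE 0.22, adjusted p = 0.585), Egr1 at 0.20 (SE 0.17, adjusted p = 0.586) and Homer1 at -0.03 (SE 0.11, adjusted p = 0.928). Klf10 and Ier5 were on the other side of 0, at -0.43 (SE 0.13, adjusted p = 0.0991) and -0.46 (SE 0.14, adjusted p = 0.122). Genes of the later activity programme, such as growth factors and neuropeptides, showed 0 calls in either direction among 20 tested, with 9 positive and a median of -0.08. That median was -0.0054 without ethanol mouse 3 and 0.07 within inferred run 2. The inhibitory neuron peptide Cort (-0.59, SE 0.20, adjusted p = 0.157) and the neuropeptide gene Vgf (-0.22, SE 0.08, adjusted p = 0.165) had the smallest p there. The difference between the lists was not tested.

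By p-value the leading rises were Rccd1, Itga8 and Rtel1. Rccd1, a chromatin-associated protein with RCC1 repeats (chromosome 7, 80293229 to 80324454, minus strand, GRCm38), ranged from 10.1 to 13.2 CPM with ethanol and from 6.44 to 9.99 CPM with water. The groups did not overlap, at a fitted log2 change of 0.52 (SE 0.08, adjusted p = 0.00601, edgeR). Itga8, the integrin alpha 8 chain (chromosome 2, 12106632 to 12301922, minus strand), ranged from 9.90 to 18.5 CPM with ethanol (median 14.7) and from 5.40 to 10.3 CPM with water (median 6.07), a fitted log2 change of 1.00 (SE 0.15, adjusted p = 0.00601). Of 22 integrin subunits tested Itga8 alone passed, 8 had a positive log2 fold change, and the list's median was -0.11. That median had the opposite sign without water mouse 25, at 0.06.

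Rtel1, a helicase that unwinds telomere loops (chromosome 2, 181319739 to 181356616, plus strand), ranged from 17.3 to 25.7 CPM with ethanol and from 12.6 to 17.2 CPM with water. These groups also did not overlap, at a fitted log2 change of 0.49 (SE 0.07, adjusted p = 0.00601, edgeR). Among 12 telomere and DNA repair helicases tested Rtel1 alone passed, although all 12 were positive with a median of 0.11, which was 0.05 with the share of reads outside genes as a covariate. Other called rises that serve replication or repair, picked out after the values were seen, include Atad5, which unloads the replication clamp (0.56, SE 0.10), Uvssa, a transcription-coupled repair factor (0.41, SE 0.08), and Donson, a replication fork protein (0.28, SE 0.06). The levels of these 3 were low, with means of 6.44, 19.5 and 19.1 CPM with ethanol. The methyltransferase-like Rrnad1 (0.33, SE 0.06), the centrosome linker protein Lrrc45 (0.35, SE 0.06), the adaptor Plekha5 (0.35, SE 0.06) and Fam214a (0.45, SE 0.08) completed the rises with the smallest p.

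Rises included genes of RNA processing. In a set assembled after the values were seen, and not compared with the share of such genes among all those tested, 21 of the 93 rises act on RNA, with log2 fold changes from 0.18 to 0.46 and a median of 0.25. Splicing proteins rich in serine and arginine among them are Rbm25 (0.19, SE 0.04), Luc7l3 (0.24, SE 0.05), Srrm2 (0.25, SE 0.05), Srsf5 (0.20, SE 0.05) and Srsf11 (0.21, SE 0.05). Rbm33, an RNA-binding protein, ranged from 103 to 140 CPM with ethanol and from 83.3 to 105 CPM with water, and had the smallest p of the group (0.35, SE 0.06, adjusted p = 0.00870, edgeR). The 3′ end factors Pabpn1 (0.22, SE 0.05) and Cpsf1 (0.23, SE 0.05) rose by similar amounts, as did Ints2, an Integrator subunit (0.36, SE 0.07), and Srrt, which links the cap complex to RNA decay (0.18, SE 0.03). In the list of 48 SR proteins and splicing regulators, 6 rose, 0 fell and 39 were positive, with a median of 0.09. With the share of reads outside genes as a covariate the median was 0.04, the lowest of all settings.

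Among long noncoding RNAs and host genes of small nucleolar RNAs 1 of 21 was called. That gene was Ftx, a noncoding neighbour of Xist on the X chromosome, which averaged 39.7 ± 9.77 CPM with ethanol (SD, n = 10) and 26.9 ± 3.80 CPM with water (SD, n = 9), a fitted log2 change of 0.57 (SE 0.12, adjusted p = 0.0344, edgeR). In all 18 of 21 were positive, with a median of 0.21, among them the imprinted Meg3 at 0.44 (SE 0.12, adjusted p = 0.0728) and Kcnq1ot1 at 0.90 (SE 0.26, adjusted p = 0.0922), which did not pass. The list's median was 0.09 with the share of reads outside genes as a covariate. Many of these RNAs stay in the nucleus. Histone and DNA modifying enzymes had 0 calls in either direction among 53, 40 positive and a median of 0.06, which had the opposite sign with the share of reads outside genes as a covariate, at -0.0043. The smallest p there belonged to the histone demethylase Kdm6a (0.28, SE 0.07, adjusted p = 0.0662) and the methyltransferase Kmt2b (0.17, SE 0.05, adjusted p = 0.0741).

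Rises also included 11 genes of the cilium, basal body and centrosome, with log2 fold changes from 0.26 to 0.95. This set was assembled after the values were seen and not compared with the share of such genes among all those tested. Dnah5, an outer arm dynein of motile cilia (chromosome 15, 28203752 to 28472052, plus strand), ranged from 10.6 to 18.5 CPM with ethanol (median 12.8) and from 4.08 to 11.5 CPM with water (median 7.10), a fitted log2 change of 0.95 (SE 0.16, adjusted p = 0.0103, edgeR). Dnah2, an inner arm dynein, rose by 0.88 (SE 0.18, adjusted p = 0.0321) from a lower level, 3.15 ± 0.979 CPM (SD, n = 9). The call of Dnah2 was lost without any 1 of 8 libraries, though not without ethanol mouse 3, the highest at 9.63 CPM. Some of the others build the base or the shaft of the primary cilium, which neurons and astrocytes carry: Fbf1 (0.27, SE 0.05), Cep164 (0.34, SE 0.07), the ciliary rootlet protein Crocc (0.42, SE 0.10), the transport dynein Dync2h1 (0.37, SE 0.09) and the Joubert syndrome gene Ahi1 (0.44, SE 0.09). The set also held centrosome genes such as Lrrc45. In the list of 20 axonemal genes tested 2 rose and 14 were positive, with a median of 0.24, which was 0.03 within inferred run 2. The set of choroid plexus and ependymal markers had 1 positive of 7 and a median of -0.36, with the ciliary master regulator Foxj1 at -0.48 (SE 0.20, adjusted p = 0.238). That median was -0.04 without water mouse 25 and had the opposite sign in 3 settings, reaching 0.19 with the share of reads outside genes as a covariate.

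Rises also included genes for channels and for adhesion or guidance proteins. These sets were assembled after the values were seen and not compared with the share of such genes among all those tested. The T-type calcium channel Cacna1g ranged from 183 to 240.007 CPM with ethanol (median 193) and from 122 to 192 CPM with water (median 161), a fitted log2 change of 0.33 (SE 0.07, adjusted p = 0.0230, edgeR). The sodium channel Scn3a (0.49, SE 0.10), the L-type calcium channel Cacna1c (0.40, SE 0.08) and Unc80 (0.25, SE 0.06), a subunit of the sodium leak channel complex, passed as well. In the list of 29 sodium and calcium channel subunits 3 rose, 0 fell and 14 were positive, and the median of -0.0075 had the opposite sign in 19 of 34 settings, upper-quartile scaling among them. None of 36 potassium channel subunits passed in either direction, with 17 positive and a median of -0.08, which was -0.03 without water mouse 18 and 0.06 within inferred run 2. The shaker-type channel Kcna4 stood at 0.46 (SE 0.12, adjusted p = 0.0766) and its relative Kcna1 at -0.46 (SE 0.16, adjusted p = 0.156).

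Csmd3, a large membrane protein whose gene spans 1211427 bases (chromosome 15, 47580637 to 48792063, minus strand), ranged from 34.3 to 53.6 CPM with ethanol and from 25.7 to 38.8 CPM with water, a fitted log2 change of 0.53 (SE 0.09, adjusted p = 0.00870, edgeR). The cadherin Celsr3 (0.42, SE 0.08), the semaphorin receptor Plxna3 (0.43, SE 0.10), the neurite regulator Nav2 (0.33, SE 0.07), protogenin Prtg (0.83, SE 0.15) and Amigo3 (0.78, SE 0.17) rose too. Isolated microglia also held several of these transcripts. Csmd3 averaged 143 ± 30.7 CPM in ethanol microglia (SD, n = 10) against 45.06 ± 5.77 CPM in ethanol homogenate (SD, n = 10), Nav2 167 ± 36.2 against 132 ± 17.97 CPM, and Amigo3 was likewise higher in microglia, whereas Celsr3, Plxna3 and Prtg were lower there. Receptors on which ethanol acts were not called in either direction, neither 13 GABA-A subunits nor 18 ionotropic glutamate subunits nor 7 metabotropic glutamate receptors. Their medians were 0.08, 0.14 and 0.13, with 9, 16 and 6 positive, and the metabotropic median was 0.05 with the share of reads outside genes as a covariate. The smallest p belonged to the kainate subunit Grik2 (0.35, SE 0.11, adjusted p = 0.118), the NMDA subunit Grin2b (0.24, SE 0.10, adjusted p = 0.225), the metabotropic receptor Grm5 (0.24, SE 0.08, adjusted p = 0.139) and Gabrb1 (0.28, SE 0.14, adjusted p = 0.331).

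**Figure D3:**
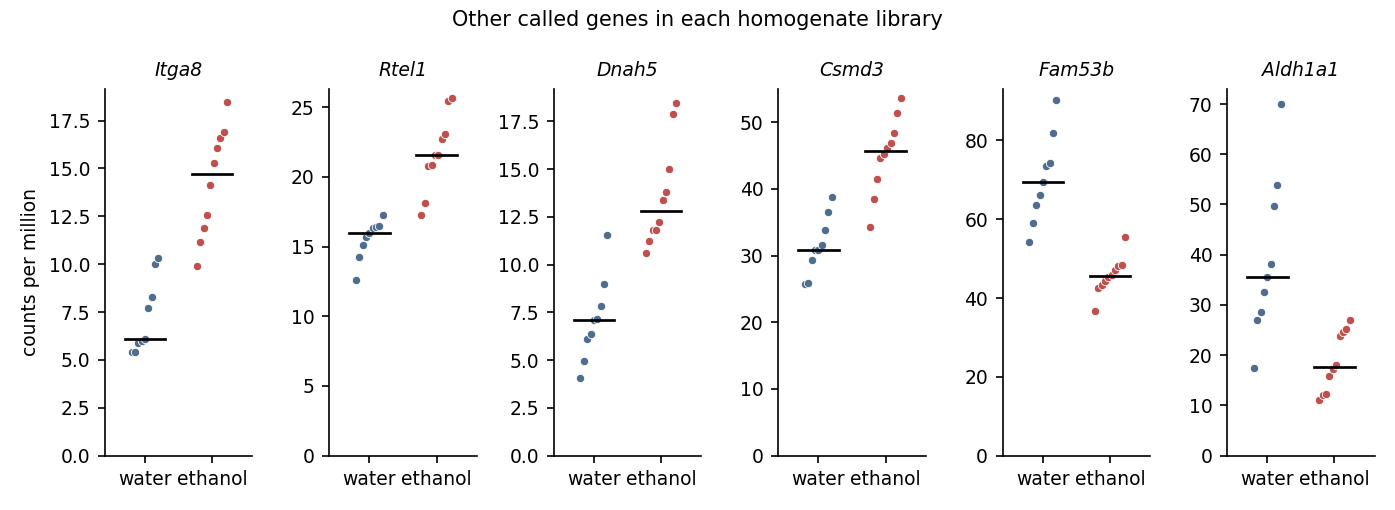
CPM from 0 on a linear axis for 4 called rises and 2 called falls in 9 water and 10 ethanol homogenate libraries; points are libraries and lines are group medians. Itga8 moves from a median of 6.07 to 14.7 CPM and Aldh1a1 from 35.6 to 17.7 CPM, and only Rtel1 of these 6 has groups that do not overlap.

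The falls were led by Fam53b, a regulator of Wnt signalling (chromosome 7, 132712082 to 132813886, minus strand). It ranged from 36.8 to 55.5 CPM with ethanol (median 45.5) and from 54.3 to 90.3 CPM with water (median 69.5), a fitted log2 change of -0.61 (SE 0.09, adjusted p = 0.00601, edgeR). The groups overlapped by a single pair of libraries, ethanol mouse 3 and water mouse 24. Nuak1, an AMPK-related kinase of axon growth, was next at -0.42 (SE 0.08, adjusted p = 0.0200), with the dipeptidase Pepd at -0.28 (SE 0.05, adjusted p = 0.0200) and the phosphatase Dusp3 at -0.33 (SE 0.06, adjusted p = 0.0207). Zfp385a, a zinc finger protein that binds mRNA, ranged from 63.0 to 72.4 CPM with ethanol and from 74.9 to 110 CPM with water, at -0.34 (SE 0.07, adjusted p = 0.0241). Of these 5 genes the first 4 were called in all 19 fits that left 1 library out, and Zfp385a lost its call without water mouse 18. The other 12 of the 17 falls named by rule lost theirs without any 1 of 8 to 14 libraries, among them the leucine zipper protein Luzp1 (-0.50, SE 0.11) and the transcription repressor Zbtb7b (-0.52, SE 0.12).

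Aldh1a1 was the steepest fall. This cytosolic aldehyde dehydrogenase makes retinoic acid from retinal and can also oxidise acetaldehyde, the product of ethanol. It ranged from 11.1 to 27.0 CPM with ethanol (median 17.7) and from 17.4 to 70.0 CPM with water (median 35.6), a fitted log2 change of -1.05 (SE 0.23, adjusted p = 0.0345, edgeR). The high water values were those of mice 17, 18 and 19, at 70.0, 53.8 and 49.7 CPM, while water mouse 21 at 17.4 CPM lay in the middle of the ethanol range. The call was lost without any 1 of 10 libraries, and the log2 fold change was -1.54 in inferred run 1 and -0.73 in inferred run 2. The list of 24 enzymes of ethanol and aldehyde oxidation had 1 call, 8 positive members and a median of -0.04, which was -0.01 without water mouse 25 and 0.01 within inferred run 2. Aldh1a2, a meningeal gene, stood at -1.27 (SE 0.79, adjusted p = 0.440) and Cyp2e1, an ethanol-oxidising cytochrome, at -0.69 (SE 0.55, adjusted p = 0.557).

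Falls included genes of energy metabolism and of protein handling, in 2 sets of 6 assembled after the values were seen and not compared with the share of such genes among all those tested. The metabolic set held the nuclear receptors Esrra (-0.38, SE 0.09) and Ppard (-0.33, SE 0.07), the glycolytic regulator Pfkfb3 (-0.38, SE 0.09), the pyrimidine carrier Slc25a33 (-0.30, SE 0.07), the phosphatase Pgp (-0.24, SE 0.05) and Ndufs7 (-0.20, SE 0.04), a subunit of respiratory complex I. In the list of 74 nuclear oxidative phosphorylation subunits Ndufs7 alone passed. Only 3 of the 74 were positive, however, and the members lay close together, between -0.27 and 0.04 with a median of -0.13. Their summed level ranged from 6339 to 7710 CPM with ethanol and from 6782 to 8671 CPM with water, so the groups overlapped.

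Proteasome subunits were also packed below 0, with 1 of 31 positive, 0 called in either direction and a median of -0.08. Chaperones of the heat shock response had 1 called fall of 23, Fkbp4 (-0.24, SE 0.06, adjusted p = 0.0490, edgeR), 2 positive members and a median of -0.13. Genes of the unfolded protein response had 1 called fall of 27, Herpud1 (-0.39, SE 0.09, adjusted p = 0.0446), 6 positive members and a median of -0.10. The other falls in protein handling were the proteasome assembly factor Pomp (-0.24, SE 0.05), the ubiquitin ligase subunit Fbxo9 (-0.28, SE 0.06), Ubxn2a (-0.34, SE 0.08) and Pepd. Cytosolic ribosomal proteins lay on the other side of 0, with 66 of 75 positive, 0 called in either direction and a median of 0.05. These list medians kept their sign in all 34 settings.

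Falls also included 1 synaptic and 2 vascular genes, a grouping made after the values were seen and not compared with all genes tested. Complexin Cplx1, a clamp of vesicle fusion that is rich in fast-spiking interneurons, ranged from 359 to 595 CPM with ethanol (median 436) and from 458 to 973 CPM with water (median 688), a fitted log2 change of -0.58 (SE 0.13, adjusted p = 0.0446, edgeR). Its call was lost without any 1 of 13 libraries, and the log2 fold change was -0.72 within inferred run 1 and -0.38 within inferred run 2. It was the 1 called gene of 33 vesicle fusion genes, of which 13 were positive. Their median of -0.02 had the opposite sign in 3 of 34 settings, among them without ethanol mouse 3. Syt2 (-1.51, SE 0.36, adjusted p = 0.0536) and Vamp1 (-0.72, SE 0.20, adjusted p = 0.0884), which mark the same fast-spiking cells, and Pvalb (-0.86, SE 0.34, adjusted p = 0.214) had lower levels but did not pass. These 3 were picked out after the values were seen, and a change in fast-spiking cells was not tested. Of 12 interneuron markers 3 were positive, with a median of -0.20, and of 15 neuropeptides 4 were positive, with a median of -0.28 and Npy at -0.35 (SE 0.10, adjusted p = 0.0884). The interneuron median was -0.12 without water mouse 26, and the neuropeptide median was -0.15 without water mouse 17. Without water mice 21, 24, 25 and 26, all the water libraries of inferred run 2, they were -0.05 and -0.07.

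Among vascular genes Nostrin, whose protein binds endothelial nitric oxide synthase, averaged 3.36 ± 1.29 CPM with ethanol (SD, n = 10) and 6.72 ± 2.31 CPM with water (SD, n = 9). Its fitted log2 change was -0.98 (SE 0.22, adjusted p = 0.0400, edgeR). Vegfa, the endothelial growth factor, fell by 0.34 on the log2 scale (SE 0.07, adjusted p = 0.0345). Apold1, the early gene of vascular endothelium, went the other way (1.12, SE 0.23). Water mouse 25 was the highest library for Nostrin at 11.07 CPM, and the call of Nostrin was lost without any 1 of 11 libraries, that one included, and that of Vegfa without any 1 of 8. Among cell type markers, 13 of 15 endothelial markers, Nostrin among them, and 11 of 12 markers of pericytes and smooth muscle were negative, with medians of -0.13 and -0.19. The endothelial sum ranged from 472 to 1498 CPM with ethanol and from 586 to 1591 CPM with water, and the pericyte sum from 232 to 874 CPM and from 253 to 1183 CPM. Without water mouse 25 both medians had the opposite sign, at 0.06 and 0.04, and the part of these markers in the vascular falls was not tested.

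**Figure D4:**
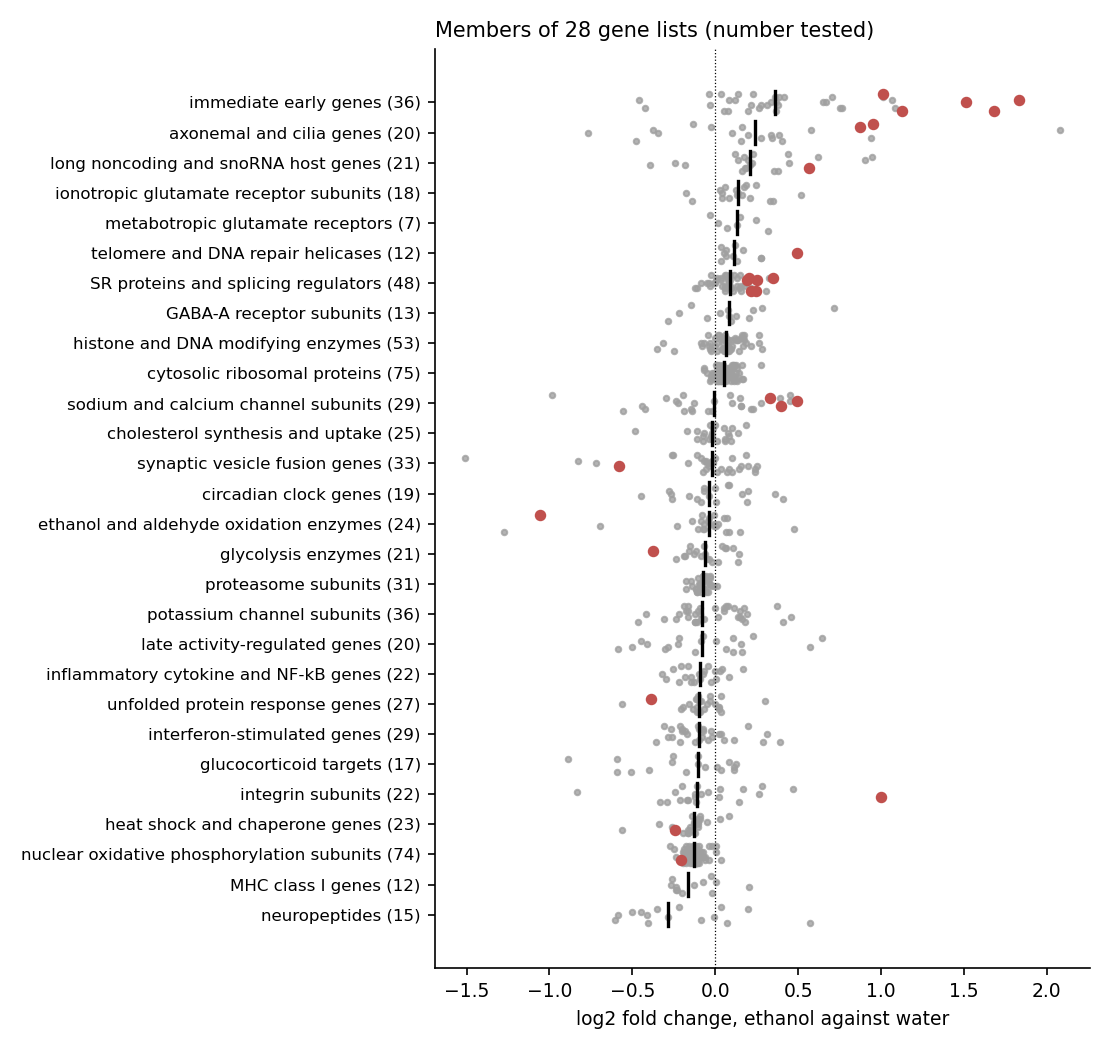
Log2 fold change of every tested member of 28 gene lists, ethanol against water; red points passed the test, grey points did not, and black bars are list medians. The immediate early genes have the highest median (0.36) and 5 red points, and the oxidative phosphorylation list is packed just below 0 around -0.13.

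Immune lists had 0 called genes in either direction. The medians were -0.10 for 29 interferon-stimulated genes, -0.09 for 22 cytokine and NF-kB genes and -0.16 for 12 class I histocompatibility genes. Each of these medians had the opposite sign without water mouse 25, at 0.05, 0.02 and 0.05. The smallest p belonged to the interferon-induced gene Xaf1 (-0.36, SE 0.14, adjusted p = 0.195) and the Toll-like receptor adaptor Myd88 (-0.22, SE 0.11, adjusted p = 0.317). Clock genes, targets of the glucocorticoid receptor and genes of cholesterol synthesis also had 0 calls in either direction among 19, 17 and 25 genes, with medians of -0.04, -0.10 and -0.02. The clock median had the opposite sign without water mouse 16, at 0.02, and the cholesterol median in 8 of 34 settings, while the glucocorticoid median was -0.25 without ethanol mouse 3. The glucocorticoid targets Klf9 (-0.26, SE 0.07, adjusted p = 0.0884) and Tsc22d3 (-0.40, SE 0.13, adjusted p = 0.137) came closest.

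Markers of other cell types moved between libraries of both groups, and their part in the results was not tested. No oligodendrocyte marker passed, yet all 12 were negative with a median of -0.70. Their summed level ranged from 1622 to 8124 CPM with ethanol (median 2050) and from 1558 to 13125 CPM with water (median 3186), and the median log2 fold change was -0.34 without water mouse 26 and -1.01 without ethanol mouse 3. Meningeal and fibroblast markers were positive in 1 of 13 with a median of -0.94, and border macrophage markers in 0 of 10 with a median of -0.55. Both rested on water mouse 25, without which the medians were 0.10 and 0.04. Striatal markers were positive in 9 of 12 with a median of 0.33, which was 0.04 without ethanol mouse 7 and -0.06 within inferred run 2. With oligodendrocyte or meningeal marker levels as a covariate, alternatives chosen after seeing the data, 95 and 201 genes passed, 66 and 116 of them among the 123.

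Microglial markers differed little in size but had one sign. All 15 were positive, none passed in either direction, and the median of 0.12 was between 0.08 and 0.20 in all other settings. Their summed level ranged from 734 to 877 CPM with ethanol (median 798) and from 675 to 889 CPM with water (median 736). The largest value was that of Siglech at 0.24 (SE 0.07, adjusted p = 0.115, edgeR). Astrocyte and general neuronal markers had medians of -0.08 and -0.07, which had the opposite sign in 1 setting each, at 0.07 within inferred run 2 and 0.0097 with the share of reads outside genes as a covariate. Markers of neutrophils and red cells were near 0 throughout, with sums of at most 21.4 and 5.46 CPM, and the haemoglobin genes Hba-a1, Hbb-bs and Hbb-bt, which have near-identical copies, were listed at 0 in every homogenate library.

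The protocol text of water mice 21, 24, 25 and 26 describes microglial isolation although their titles say homogenate. By content they were homogenate. Their microglial markers summed to 736 to 889 CPM, against 675 to 754 CPM in the other water homogenates and 33798 to 46371 CPM in 18 microglial libraries. The synaptic gene Snap25 stood at 1837 to 2185 CPM in them and at 3.97 to 32.0 CPM in microglia. Without these 4 libraries 225 genes passed, 68 of them among the 123, and the split was 98 higher and 127 lower. These libraries were also all the water libraries of inferred run 2, so in that fit its 4 ethanol libraries had no water counterpart. Treatment and run are partly mixed there, and their parts cannot be told apart.

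Exonic length here joins the exons of all annotated transcripts of a gene, so it is not the length of 1 transcript. By that measure the genes that rose were long. Their median exonic length was 7.37 kb and their median number of exons in the transcript with the most exons 18, against 4.43 kb and 9 for all genes tested, and against 4.47 kb and 7.5 for the falls. Split into 5 equal bins by exonic length, 43 of the 93 rises lay in the longest bin, where 1.43% of genes were called higher, and 3 lay in the shortest, where 0.0996% were. The median log2 fold change moved from -0.03 in the shortest bin to 0.03 in the longest, and the share of positive genes from 43.5% to 58.0%. Falls numbered 5 in the shortest bin, 9 in the middle bin and 2 in the longest. The median of the mean water levels was 43.4 CPM for the rises, 61.1 CPM for the falls and 21.5 CPM for all genes tested. Whether expression level or read depth per transcript took part in the length pattern was not tested. By the genomic span of the gene, introns included, the bins held 12 to 23 rises each.

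Within one treatment, most rises had higher levels in libraries with a larger share of reads outside genes. Across the 9 water libraries 66 of the 93 rises (71.0%) had a positive slope of log2 level on that share, against 49.6% of all genes tested within water. Across the 10 ethanol libraries 86 (92.5%) did, against 49.8%. Without the library of highest share in each group, water mouse 17 and ethanol mouse 9, the numbers were 81 (87.1%, against 50.4%) and 84 (90.3%, against 53.0%). Of the 30 falls 16 had a positive slope in water and 9 in ethanol, so most slopes were negative in ethanol. Without those libraries 4 and 14 were positive, so the majority was negative in water as well. No slope of a called gene passed its own test. These genes share libraries, so their slopes are not independent, and the cause of the slopes was not tested.

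Whether the tissue response differed from that of microglia was tested by the interaction of treatment and preparation over both kinds of library. Of 15797 genes 54 differed (0.342%), and 9 of them were among the 123 called in homogenate. Rbm33 (0.40, SE 0.08), Srrt (0.33, SE 0.07) and Ftx (0.98, SE 0.21) had higher responses in homogenate than in microglia. Fam53b (-0.63, SE 0.11), Nuak1 (-0.55, SE 0.10), Herpud1 (-0.52, SE 0.12), Pepd (-0.50, SE 0.10), Zfp385a (-0.49, SE 0.10) and Crkl (-0.37, SE 0.08) had lower ones. The adjusted p of these 9 lay between 0.0211 and 0.0497 in edgeR's test. For Ftx the difference was larger than its own rise in homogenate. Homogenate and microglia of one number came from one mouse, and with the mouse as a block 0 genes passed, with adjusted p between 0.159 and 0.285 for the 9, the same directions, and 1132 genes at an unadjusted p under 0.05.

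In microglia the falling genes of that set were near 0 or slightly positive. Fam53b had a fitted log2 change of -0.01 (SE 0.08), Nuak1 of 0.11 (SE 0.06), Pepd of 0.18 (SE 0.08) and Zfp385a of 0.12 (SE 0.07). Of the 93 rises 86 were tested in microglia and 50 were positive there, and of the 30 falls all 30 were tested and 17 were negative. For the early genes the difference did not pass, with Cyr61 at 1.73 (adjusted p = 0.0768), Btg2 at 1.19 (adjusted p = 0.0595) and Npas4, which was too low in microglia for a test there, at 1.93 (adjusted p = 0.342). Of 13223 genes tested in microglia alone 1 passed.

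**Figure D5:**
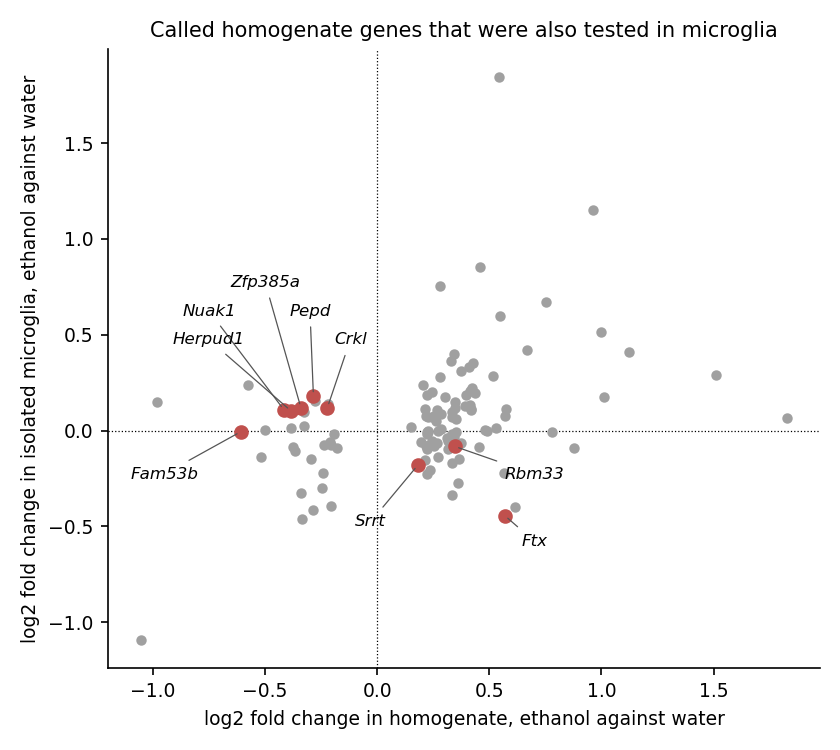
Log2 fold change in homogenate (horizontal) and in isolated microglia (vertical), ethanol against water, for the 116 of 123 called homogenate genes that were also tested in microglia. Red points are the 9 genes whose responses differed between preparations without the mouse as a block, and the rises lay on both sides of 0 in microglia, with 50 of 86 positive.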

How the data were processed

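RNA was poly(A)-selected and sequenced as 75 bp paired reads after 15 PCR cycles, per the labels' protocols. Each deposited file holds the authors' whole-number read counts for 24062 gene symbols and 5 tally lines. The submitters' processing notes name STAR, HTSeq, DESeq2, FastQC, bcl2fastq 2.15.0.4 and build mm10. Settings, annotation and strandedness of counting are not given in the sources, so overlapping, antisense and near-identical genes are uncertain. The tally lines stayed out of library sizes and tests.

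Ethanol homogenates (n = 10) were compared with water homogenates (n = 9) by edgeR 4.0.16 in R 4.3.3, with its quasi-likelihood F-test, TMM scaling, filterByExpr and Benjamini-Hochberg adjustment at 0.05 over all genes tested. Every adjusted p given without a tool is from this test. The SE was obtained from the log2 fold change and the root of its F value. Counts in genes ranged from 24.2 M to 62.4 M (M, mega) with ethanol and from 24.5 M to 67.5 M with water. No 2 libraries of a group were alike within sampling noise (lowest chi-square per degree of freedom 13.2). Each library had its own mouse number, and p-values measure the spread between these libraries. The interaction with preparation used 10 ethanol and 8 water microglial libraries as well. Not every water microglial library of the series was available here, so the fit with the mouse as a block used 18 pairs. Homogenate and microglia of one number share a mouse by the protocol, and the deviations of the 18 pairs from their group means had correlations across genes between -0.0215 and 0.123, the median being 0.0239.

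The members, the 28 gene lists, the 18 marker sets (1021 of 1031 symbols found) and the tests were chosen with earlier results of these data known. Genes named by rule were, among called genes with a group mean of at least 1 CPM and without predicted genes, the 14 smallest p and the 6 largest changes in each direction, and up to 3 members of each list with at least 2 calls. Sets of called genes by function were assembled after the values were seen. DESeq2 1.42.0, limma-voom 3.58.1, other scalings and filters, covariates, inferred runs and leaving out each library were alternatives. Positions are from GENCODE M21 and promoters from RefSeq, both on GRCm38, the assembly that mm10 names. The script was tested on simulated data.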

Additional observations from a re-analysis of the deposited data

Results flagged for a closer look

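Of 120 group values examined 14 stood apart from the rest of their group by Dixon's criterion, which about 1 of 20 groups of independent normal values meet. The values examined share libraries and CPM need not be normal, so the 14 cannot be set against that rate. Ethanol mouse 3 accounted for several. It was the highest ethanol library for Cacna1g at 240.007 CPM, for Scn3a at 100.305 CPM and for Dnah2 at 9.63 CPM. The same library had the highest mean log2 CPM of oligodendrocyte markers, 8.003, and the lowest of glutamatergic markers, 6.56. Ethanol mouse 5 was highest for Cyr61 at 72.5 CPM, ethanol mouse 9 for Rrnad1 at 29.3 CPM and ethanol mouse 14 for Nostrin at 6.45 CPM. Ethanol mouse 7 had the highest level of striatal markers, 4.56 on the log2 CPM scale, with the next library at 3.07.

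Among water libraries mouse 18 was highest for Pgp at 69.5 CPM and mouse 17 for the share of reads outside genes at 26.8%. Water mouse 25 was highest for border macrophage markers at 3.45 on the log2 CPM scale. Water mouse 19 was highest for neutrophil markers at 0.10 and monocyte markers at -0.81 on that scale.

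The ethanol response differed between homogenate and microglia by the interaction test for 9 called genes. The difference in log2 fold change, homogenate minus microglia, was -0.37 for Crkl, -0.63 for Fam53b, 0.98 for Ftx, -0.52 for Herpud1, -0.55 for Nuak1, -0.50 for Pepd, 0.40 for Rbm33, 0.33 for Srrt and -0.49 for Zfp385a. None of the 9 passed with the mouse as a block, where adjusted p lay between 0.159 and 0.285.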

How the results depend on the processing

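The number of genes called between ethanol and water homogenate, 123, moved to 525 with DESeq2 and 62 with no filter on low counts. It moved to 225 without water mice 21, 24, 25 and 26, all the water libraries of inferred run 2. With the share of reads outside genes or the log2 total count as a covariate it was 0. Within inferred run 1 or 2 alone it was also 0. After seeing the data 2 more were tried that moved it: 201 with meningeal marker level as a covariate and 25 without ethanol mouse 9 and water mouse 17. It was 118 with limma-voom, 126 with RLE scaling, 176 with upper-quartile scaling, 158 with a stricter filter, 149 with the inferred run as a block and 95 with oligodendrocyte marker level as a covariate. Leaving out 1 library gave 39 (without water mouse 18) to 275 (without ethanol mouse 1) genes, and 13 of the 19 such fits lay over 1.5 times away from 123. The counts were 50, 231, 55, 71, 58, 54 and 70 without ethanol mice 2, 3, 5, 7, 9, 10 and 13, and 57, 57, 185 and 55 without water mice 17, 19, 24 and 26. The split of 93 higher and 30 lower became 104 and 97 with the meningeal covariate, and 98 and 127 without the 4 water mice.

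Of the 40 genes named by rule 20 kept their call in every fit without 1 library and 0 changed sign in any of 34 settings. The settings reuse the libraries by which these genes were picked, so an unchanged sign is no independent check. None passed under either of the share and depth covariates or within inferred run 1 or 2 alone. The interaction count of 54 became 0 with the replicate block of mouse number, 267 with DESeq2, 42 with RLE scaling and 45 with no filter. Ethanol and water mice have different numbers, so no pairing joins them. Of 1564 recomputed list medians 21 moved by more than the SD of the list's mean log2 CPM across the 9 water libraries. That SD is a spread of single libraries and a wide measure, so many medians that changed sign stayed within it. The causes of these shifts were not tested.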
